A study of Homo sapiens with 2 samples.

Results

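The genes described here are 32 genes of cholesterol synthesis and sterol regulation, taken from a list ordered by step of the pathway, in a study of genes regulated by miR-203. Of the 32, 29 had at least 1 probe set annotated to that gene alone, and 27 were measured, out of 13311 measured genes among the 19775 genes with such a probe set. FDFT1, NR1H2 and CYP51A1 were not analysed here, the last because the 2 probe sets that name it also name a second gene. Each gene was represented by its brightest probe set, the one with the highest mean over both arrays. A gene counted as measured if the higher of its values reached 5.37, the median of all probe set means on the log2 scale. The measured member nearest to this level was MVD, with a higher value of 7.12, and the nearest one outside was ABCA1, at 5.34.

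RNA came from stable derivatives of MDA-MB-231, an established human breast cancer line that lacks hormone receptor signalling and has mesenchymal features. The control derivative was infected with a virus carrying an empty vector, and the other with a virus that overexpresses miR-203. Both were grown in the same serum-containing medium, and 1 Affymetrix array was hybridised per derivative. Each group is therefore 1 infected cell population on 1 array, with no replicate error, so differences are described without tests or p-values. The labels do not say whether a derivative is a clone or a pool. Culture, RNA preparation and hybridisation all enter each difference, and bulk RNA cannot tell fewer expressing cells from less transcript per cell.

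The arrays correlated with r = 0.996 over 54675 probe sets and had medians of 5.38 and 5.38. Differences of the 13311 measured genes had an SD of 0.22. The mesenchymal markers VIM, CD44, AXL and CAV1 had values of 11.70 to 13.90 in the control line and 11.75 to 13.89 with miR-203. Of 5 luminal markers, PGR and CDH1 lay under the filter level in either line, while ESR1, GATA3 and FOXA1 lay above it, between 6.27 and 7.89; that level is a convention and not a detection limit. Of 8 markers of blood, endothelial and fibroblast cells, PTPRC, CDH5 and COL3A1 were under it in either line. The other 5, CD3E, CD79A, PECAM1, COL1A1 and DCN, lay between 5.46 and 7.86, and their part in the results was not tested. In the annotation used here no probe set was named for the miR-203 gene, so the level of the microRNA was not read from these arrays.

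Cholesterol is built from acetyl-CoA by way of HMG-CoA, mevalonate, isoprenoid diphosphates, squalene and lanosterol. Supply is controlled by the SREBP transcription factors, which stay in the endoplasmic reticulum with their escort SCAP while INSIG proteins hold the complex there, and which reach the nucleus after cleavage when membrane sterol is low. Liver X receptors act in the opposite direction: they are activated by oxysterols and drive cholesterol export. A microRNA pairs with transcripts mainly through its seed and lowers their level or translation.

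The mature guide strand of the overexpressed microRNA is shown because it is the only agent that differs by design between the lines. The sequence is from RefSeq (GRCh38.p14, chr14:104117469-104117490, plus strand), with the seed, bases 2 to 8, in capitals. It assumes that the label miR-203 refers to the 3p strand of miR-203a.
hsa-miR-203a-3p: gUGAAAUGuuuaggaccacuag

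The stretches upstream of 3 members are shown for the ends of the measured range. HMGCS1 and MSMO1 had the largest positive differences and SREBF2 the most negative one by the brightest probe sets. EBP took that place with the median over probe sets, at -0.16 against -0.019 for SREBF2, and without _x_at and _s_at sets, at -0.164 against -0.160. Each is the 250 bases before the annotated start in RefSeq (GRCh38.p14), 5′ to 3′ on the gene's strand. HMGCS1 is at chr5:43313413-43313662 on the minus strand, MSMO1 at chr4:165327419-165327668 on the plus strand and SREBF2 at chr22:41832855-41833104 on the plus strand. Capitals mark CCAAT, the letters bound by the factor NF-Y, read on either strand (ATTGG on the opposite one), and the classical sterol regulatory element to which SREBPs bind, the longer run of capitals in SREBF2.
HMGCS1: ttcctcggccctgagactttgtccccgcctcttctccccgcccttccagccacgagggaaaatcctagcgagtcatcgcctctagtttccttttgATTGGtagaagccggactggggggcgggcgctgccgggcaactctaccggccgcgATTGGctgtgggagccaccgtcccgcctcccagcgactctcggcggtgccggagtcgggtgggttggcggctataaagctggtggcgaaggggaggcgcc
MSMO1: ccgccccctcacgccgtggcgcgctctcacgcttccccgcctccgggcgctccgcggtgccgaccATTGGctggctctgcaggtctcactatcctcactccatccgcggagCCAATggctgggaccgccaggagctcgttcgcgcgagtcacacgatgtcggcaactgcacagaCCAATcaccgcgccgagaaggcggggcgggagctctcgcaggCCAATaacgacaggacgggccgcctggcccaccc
SREBF2: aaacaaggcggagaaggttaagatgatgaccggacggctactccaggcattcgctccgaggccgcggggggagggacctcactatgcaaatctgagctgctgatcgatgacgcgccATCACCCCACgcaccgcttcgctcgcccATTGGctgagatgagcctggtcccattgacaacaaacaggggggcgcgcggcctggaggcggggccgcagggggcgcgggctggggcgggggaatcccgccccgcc

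The comparison of the miR-203 line with the empty-vector line showed small differences in this gene group. Each difference is the log2 value in the miR-203 line less that in the control line. At a threshold of 1.2-fold (0.2630 on the log2 scale), 9 of 27 measured members were higher in the miR-203 line, against 11.0% of all measured genes, and none was lower (0 of 27), against 7.35% of all genes. The 9 genes, 33.3% of the measured members, were the enzymes HMGCS1, IDI1, SQLE, MSMO1 and SC5D, the regulator INSIG2, and the sterol carriers STARD4, NPC1 and NPC2. No member reached 1.5-fold in either direction (0 higher, 0 lower), against 0.721% higher and 1.08% lower of all measured genes. Among the 8285 genes within the members' range of mean level, 11.3% were at least 1.2-fold higher and 5.59% at least 1.2-fold lower. The members and the 1.2-fold threshold were chosen with earlier results of these data known, so these shares are a description and not a test.

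The median difference of the members was 0.077, with quartiles at -0.026 and 0.28, beside 0.013 for all measured genes. Of the 27, 18 lay above 0 and 9 below, while 52.1% of all measured genes lay above 0. The members ran from -0.16 for SREBF2 to 0.46 for HMGCS1. The 17 measured synthesis enzymes had a median of 0.073, with 12 above 0 and 5 below. The 1.2-fold threshold placed 9 members between 0.27 and 0.46 and the other 18 between -0.16 and 0.20. Under other settings members fell between these ranges, such as IDI1 at 0.25 with the median over probe sets.

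**Figure D1:**
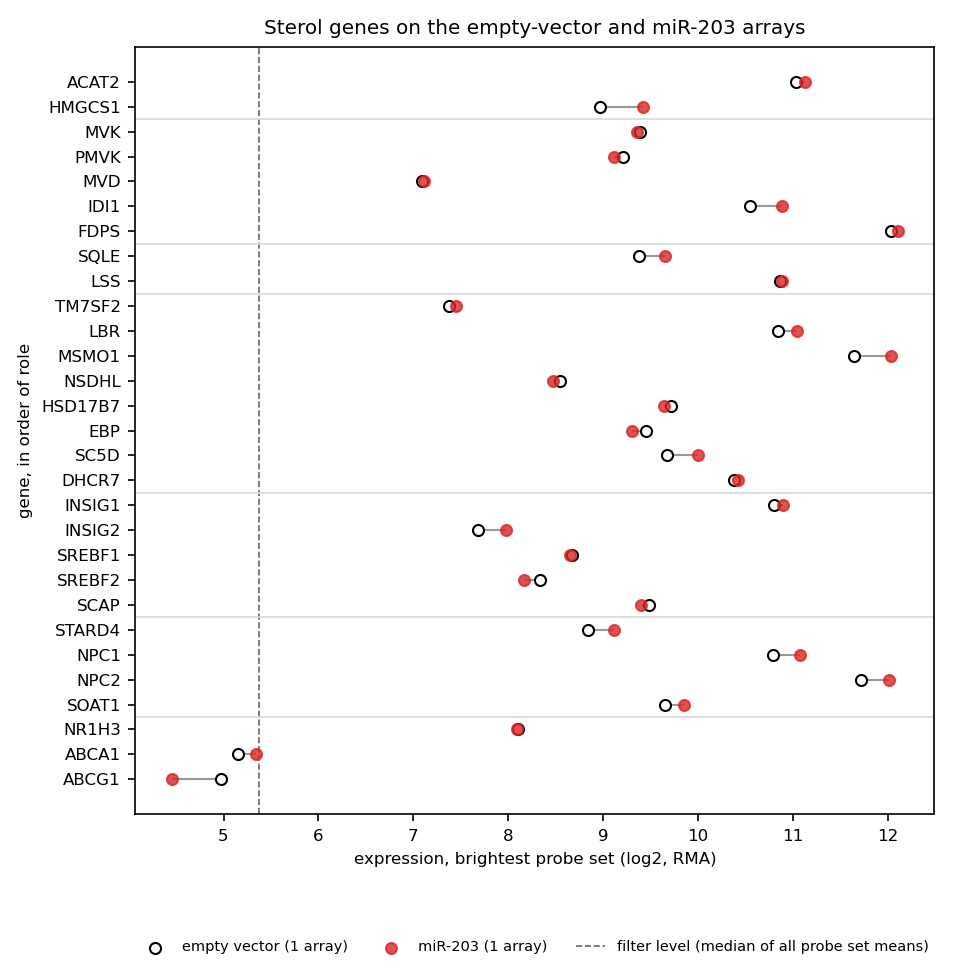
Log2 expression of the 29 genes with a probe set of their own, by the brightest probe set, on the empty-vector array (open) and the miR-203 array (red), 1 array each, in order of role with grey lines between roles. The filter level is dashed. The open and red points nearly coincide for MVK, MVD and LSS, stand apart for HMGCS1 and MSMO1, and lie under the filter level for ABCA1 and ABCG1.

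In the first steps, ACAT2, which condenses acetyl-CoA, and HMGCS1, which forms HMG-CoA, were both measured. HMGCS1 went from 8.97 with the empty vector to 9.42 with miR-203, a difference of 0.46 or 1.37-fold, the largest in the group. Its second probe set went from 7.10 to 7.41, a difference of 0.31, so both its probe sets were higher in the miR-203 line. The difference of HMGCS1 ranked 299th from the top of 13311 genes. It lay just above the middle 95% of the 500 genes nearest in level, -0.36 to 0.44. ACAT2 went from 11.03 to 11.13, a difference of 0.097 by its 1 probe set.

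From mevalonate to farnesyl diphosphate, 1 of 5 enzymes passed 1.2-fold. IDI1, the isomerase that makes the reactive isoprene unit, went from 10.55 to 10.89, a difference of 0.34 or 1.27-fold. Its other 3 probe sets gave 0.27, 0.23 and 0.015, all on the same side. The names of 3 of the 4, the brightest 2 included, end in _x_at, a mark of sets that can match several transcripts. By the fourth, a dim set at 5.98 and 6.21, IDI1 was at 0.23 and under 1.2-fold. Mevalonate kinase (MVK) went from 9.39 to 9.36, a difference of -0.032. Its other 3 probe sets gave -0.053, -0.21 and 0.30, so the sign depended on the probe set. PMVK, the next kinase, went from 9.21 to 9.12, a difference of -0.088. MVD, the decarboxylase that follows, went from 7.10 to 7.12, a difference of 0.021. FDPS, which joins the isoprene units, went from 12.03 to 12.11, a difference of 0.077.

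Around squalene, SQLE and LSS were measured. SQLE, the squalene epoxidase and a rate-limiting enzyme of the later pathway, went from 9.38 to 9.65, a difference of 0.27. The 2 other SQLE probe sets over the filter level gave -0.075 and 0.15, of opposite sign, and their median with the brightest, 0.15, lay under the threshold. The remaining SQLE set, under the filter level, gave 0.19. LSS, which closes the sterol ring system to give lanosterol, went from 10.86 to 10.89, a difference of 0.025. The dimmer LSS probe sets gave 0.20 and 0.37, above the value of the brightest one.

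Of the 8 measured enzymes that turn lanosterol into cholesterol, 2 passed 1.2-fold. MSMO1, which removes the methyl groups at carbon C-4, went from 11.64 to 12.03, a difference of 0.39 or 1.31-fold by its 1 probe set. It ranked 498th from the top and lay above the middle 95% of genes of similar level, -0.24 to 0.36. SC5D, the sterol desaturase, went from 9.68 to 10.00, a difference of 0.32 or 1.25-fold. Its other probe set lay under the filter level and held the same value, 3.30, on both arrays.

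LBR, a nuclear envelope protein that also reduces the sterol ring, went from 10.84 to 11.05, a difference of 0.20. TM7SF2, which catalyses the same reduction in the endoplasmic reticulum, went from 7.38 to 7.45, a difference of 0.073. DHCR7, the last reductase of the pathway, went from 10.38 to 10.42, a difference of 0.040. Its other probe set gave 0.016. These 3 reductases were all on the positive side and under 1.2-fold.

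EBP, the sterol isomerase, was below 0 by all 4 probe sets, none past 1.2-fold. EBP went from 9.45 to 9.31, a difference of -0.15. Its other 3 probe sets gave -0.16, -0.091 and -0.26. NSDHL, which works with MSMO1 in C-4 demethylation, went from 8.55 to 8.47, a difference of -0.079. Its other probe set gave -0.17. HSD17B7, the ketoreductase of the same step, went from 9.71 to 9.64, a difference of -0.070. The 3 enzymes of C-4 demethylation measured here were thus at 0.39, -0.079 and -0.070. The values of NSDHL and HSD17B7 were small beside the SD of 0.22 over all measured genes. Of all measured genes, 30.4% lay below NSDHL and 32.1% below HSD17B7, so no contrast within this step is drawn. HSD17B7 was read by 1 probe set, whose name ends in _x_at.

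**Figure D2:**
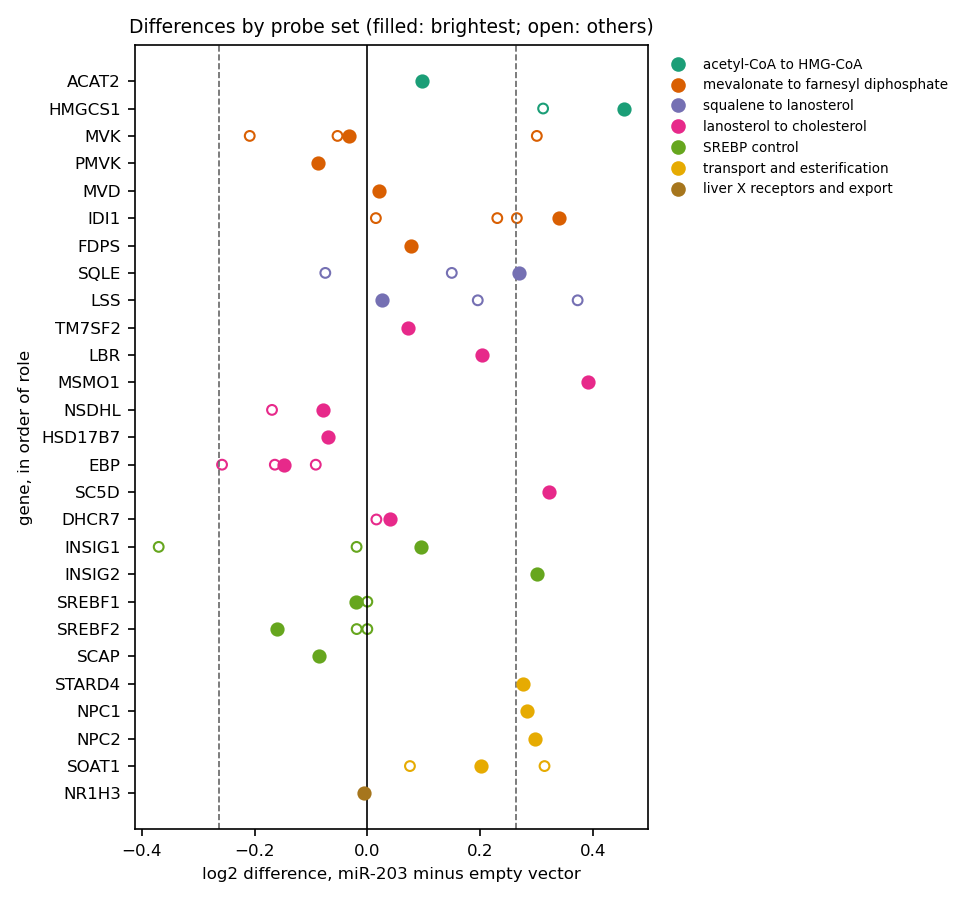
Log2 differences (miR-203 minus empty vector) of the 27 measured members, in order of role and coloured by it; filled points are the brightest probe set, open points the other probe sets over the filter level, and dashed lines mark 1.2-fold in each direction. Open and filled points agree in sign for HMGCS1, IDI1 and EBP and lie on both sides of 0 for MVK, SQLE and INSIG1.

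Of the 5 genes of SREBP control, INSIG2 alone passed 1.2-fold. INSIG2, a retention protein of the SREBP complex, went from 7.68 to 7.98, a difference of 0.30 or 1.23-fold by its 1 probe set. Genes of similar level spanned -0.50 to 0.45 in their middle 95%. INSIG1, its paralog and a direct SREBP target, went from 10.80 to 10.89, a difference of 0.095. Its other 2 probe sets gave -0.019 and -0.37, so the probe sets of INSIG1 differed in sign.

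The transcription factor genes were close to 0 or slightly below it. SREBF2, which encodes SREBP-2, the main activator of cholesterol synthesis genes, went from 8.33 to 8.17, a difference of -0.16. Its other probe sets gave -0.019 and exactly 0. SREBF1, whose product acts more on fatty acid genes, went from 8.67 to 8.65, a difference of -0.021, with a second probe set at exactly 0. Values identical on both arrays were found for 6.40% of all probe sets. SCAP went from 9.49 to 9.40, a difference of -0.085. None of these 3 genes differed by 1.2-fold. The arrays read transcript levels only, and SREBP cleavage was not measured.

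Of the 4 genes of sterol transport and esterification, 3 passed 1.2-fold as higher and SOAT1 did not, with a median difference of 0.28. NPC1 and NPC2 hand cholesterol out of the lysosome. NPC1 went from 10.79 to 11.08, a difference of 0.28 or 1.22-fold, and its 3 other probe sets, under the filter level, gave 0, -0.085 and 0. NPC2 went from 11.71 to 12.01, a difference of 0.30 or 1.23-fold by its 1 probe set. STARD4, a soluble sterol carrier and SREBP target, went from 8.84 to 9.11, a difference of 0.28 or 1.21-fold. SOAT1, which esterifies cholesterol for storage, went from 9.66 to 9.86, a difference of 0.20. Its other probe sets gave 0.31 and 0.076. Each of the 4 lay inside the middle 95% of genes of similar level, for example -0.29 to 0.39 around NPC1.

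Of the liver X receptor and export genes, NR1H3 was the one measured. NR1H3, the gene of LXR-alpha, went from 8.10 to 8.10, a difference of -0.0065. The exporter genes ABCA1 and ABCG1 did not pass the rule. The brightest ABCA1 probe set went from 5.15 to 5.34, and its second went from 4.86 to 5.43, reaching the filter level on the miR-203 array alone. The other 2 gave -0.37 and -0.22, opposite in sign to the brighter pair. ABCG1 was under the filter level by all 4 probe sets, with differences of -0.52, 0.59, 0.30 and -0.25, so no direction is given for either exporter.

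**Figure D3:**
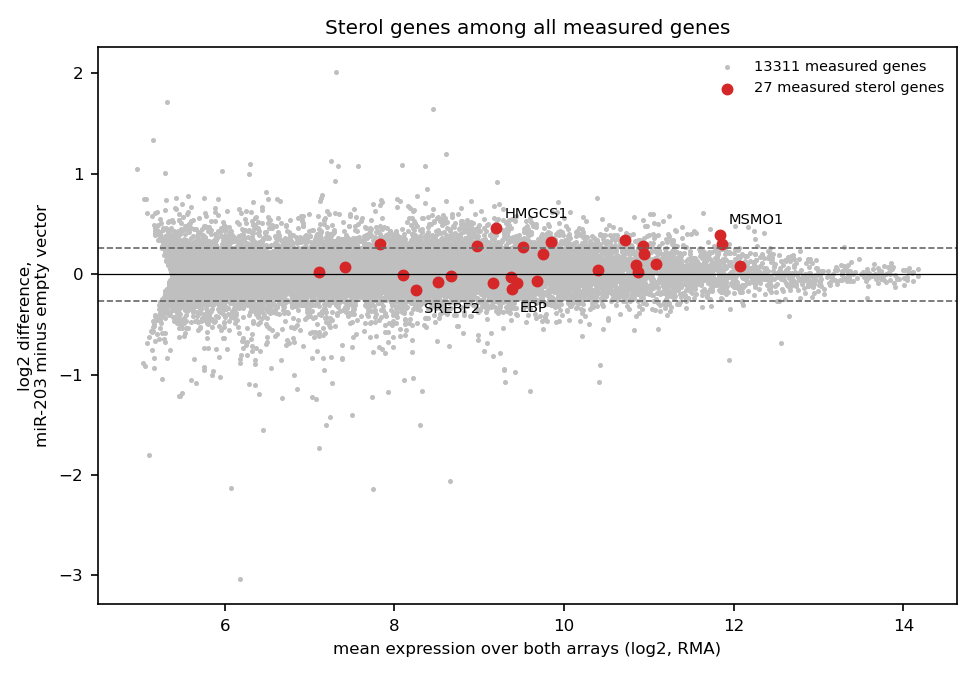
Log2 difference (miR-203 minus empty vector) against mean log2 expression over both arrays for the 13311 measured genes (grey) and the 27 measured members (red), with 1.2-fold marked by dashed lines. The members lie within the bulk of genes between -0.16 and 0.46, with HMGCS1 and MSMO1 near its upper edge.

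Several members had more than 1 probe set over the filter level, which gives a reading on the same RNA and not a replicate. Of 12 such members, 7 had the same sign by all probe sets, or 58.3%, beside 52.7% of 6285 genes with several probe sets. In 5 of the 12 (41.7%) all probe sets were above 0, beside 28.5% of the 6285 genes. The median within-gene SD of the difference was 0.11 for these members and 0.10 for all such genes. HMGCS1 and MSMO1 were the 2 of 27 members outside the middle 95% of the 500 genes nearest in level. By construction, 5% of genes lie outside such a range.

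Membership in the group of 9 depended on settings for SQLE, STARD4 and NPC1, which lay near the threshold, and for IDI1, whose probe sets differed. Centring all differences on their median left SQLE at 0.255 and STARD4 at 0.2628, both just under the 0.2630 that corresponds to 1.2-fold. Removing the trend of difference on level also left NPC1 under it, at 0.2623, with 6 of 27 members at least 1.2-fold higher, against 9.42% of all measured genes. IDI1 was at 0.25 with the median over its probe sets. HMGCS1, MSMO1, INSIG2 and NPC2 passed 1.2-fold under all 7 alternatives run, and SC5D did so under the 6 in which it was measured. MSMO1, INSIG2, NPC2 and SC5D each had 1 probe set over the filter level. Among these settings, only centring and removal of the trend could therefore change their differences.

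RefSeq promoters, from 250 bases before to 50 after the first listed start, were at hand for 28 of the 32 members. CCAAT, on either strand, was in 17 of these 28, or 60.7%, beside 35.7% of 27305 promoters of the same length. Among measured members with a promoter, it was in 5 of 8 that were at least 1.2-fold higher (62.5%) and in 12 of 17 that were not (70.6%). The share with these letters was not larger among the higher members. MSMO1 held 4 matches, HMGCS1 2, and MVK and NSDHL, with differences just below 0, 5 each. In NSDHL the match from base -113 to -109 overlaps that from -110 to -106 on the opposite strand. A relation between these letters and the differences was not tested. TCACNCCAC, a looser form contained in the classical element, was in the SREBF2 promoter alone among the 28, and in 1.15% of all promoters. The full classical element lies there from base -134 to base -125 before the start and is found in 0.0476% of all promoters. A match is a description of letters and not of a bound site, and elements outside this window were not searched.

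Genes around the pathway were read in 5 further lists. Non-sterol branches of the mevalonate pathway, which use isoprenoids for prenylation, dolichol and ubiquinone, had a median difference of 0.11 over 10 measured genes, with 7 above 0. In this list FNTA, a subunit of the protein prenyltransferases, was at 0.39 and passed 1.2-fold, with its other probe set at 0.35. GGPS1, which makes geranylgeranyl diphosphate, was at 0.26, just under 1.2-fold, with its other probe set at 0.44. RABGGTB was at 0.22. DHDDS, which makes dolichol precursors, was at 0.19, with its other probe set at 0.27, just over 1.2-fold.

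The fatty acid synthesis genes driven by SREBP-1 had a median of 0.082 over 9 measured genes. By the brightest probe sets none passed 1.2-fold in either direction (0 higher, 0 lower). The largest differences were 0.26 for the elongase ELOVL6, 0.18 for ACSS2, 0.11 for LPIN1 and -0.11 for ACLY. The 3 ELOVL6 probe sets over the filter level ran from 0.10 to 0.29, on both sides of 1.2-fold. FASN was at -0.050 and SCD at -0.026. Probe sets over the filter level ran from -0.050 to 0.056 for FASN and from -0.049 to 0.19 for SCD. Those of ACLY ran from -0.11 to 0.016, so the sign depended on the probe set in all of these genes. The SREBP cleavage and sterol-dependent degradation genes had a median of 0.080 over 9 genes. Counted by the brightest probe sets, 1 was at least 1.2-fold higher (11.1%, beside 11.0% of all measured genes). In the same count 1 was at least 1.2-fold lower, beside 7.35% of all measured genes. The protease MBTPS2, which makes the second cut that frees SREBPs, was at 0.28, and MBTPS1, which makes the first, at 0.085. The ubiquitin enzyme UBE2G2 had a difference of -0.40, and its 4 probe sets ran from -0.49 to 0.19. VCP, the segregase of this route, was at -0.25 and AUP1 at -0.24. The 2 ERLIN2 probe sets over the filter level ran from 0.21 to 0.48, on both sides of 1.2-fold.

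Intracellular sterol carriers and hydrolases had a median of -0.048 over 10 genes. Counted by the brightest probe sets, 1 was at least 1.2-fold higher and 2 lower, beside 11.0% higher and 7.35% lower of all measured genes. GRAMD1B, a carrier that brings plasma membrane cholesterol to the endoplasmic reticulum, was at -0.44 and the late endosomal STARD3 at -0.33. The cholesteryl ester hydrolase NCEH1 was at 0.30 and the lysosomal lipase LIPA at 0.24. GRAMD1B and STARD3 were the lowest of this list by the brightest probe sets, each with 1 probe set over the filter level. Other probe sets in the list were lower. The 3 OSBPL8 probe sets over the filter level ran from -0.67 to -0.085 and the 3 of SCARB1 from -0.39 to -0.063. Over the whole list 3 genes lay above 0 and 7 below, with quartiles at -0.080 and 0.16. LXR targets other than the exporters had a median of 0.099 over 4 measured genes. By the brightest probe sets none passed 1.2-fold (0 higher, 0 lower). PLTP was at 0.16, MYLIP at 0.13, SMPDL3A at -0.081 and LPCAT3 at 0.068. The 4 MYLIP probe sets over the filter level ran from 0.13 to 0.43, on both sides of 1.2-fold, and the 2 of LPCAT3 from -0.0029 to 0.068.

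**Figure D4:**
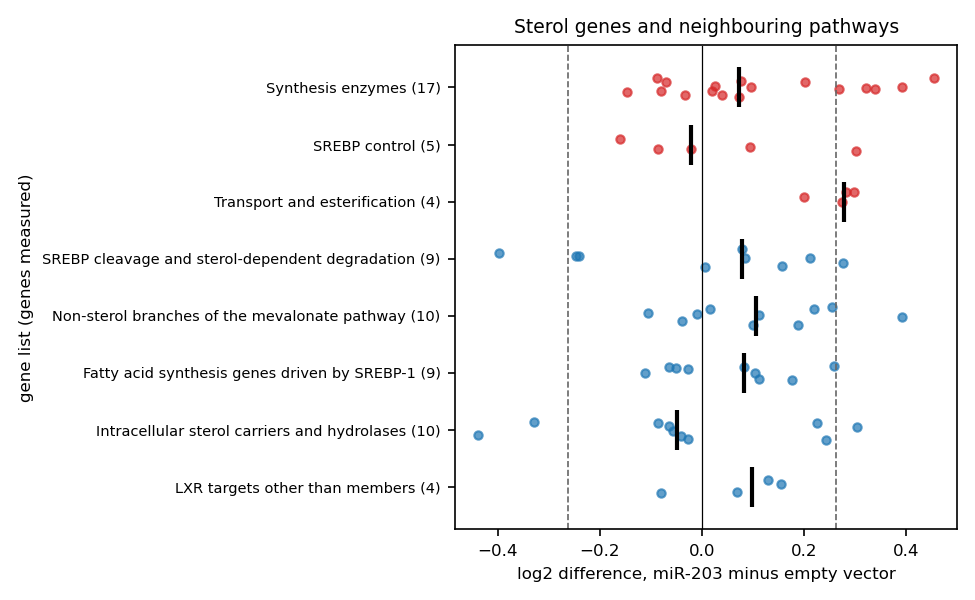
Log2 differences (miR-203 minus empty vector) of the measured genes in 3 groups of members (red) and 5 neighbouring lists (blue), 1 point a gene, with black bars for medians and dashed lines at 1.2-fold. The transport and esterification genes have a median of 0.28, and the medians of the other groups lie between -0.048 and 0.11.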

How the data were processed

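The values the authors deposited are log2 expression, 1 per probe set and array, from RMA per the submitters' processing notes, which name no version. RMA corrects background, equalises the distributions of arrays and summarises probes, so a shift of all transcripts in 1 direction would not be seen. The log2 scale was read from the values, from 1.37 to 14.23. After sorting, no value differed between the arrays by more than 0.095.

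Platform annotation gave 1 symbol for 41091 probe sets and several for 1801, and the latter were not used. The 62 control probe sets were left out. Symbols were updated through gene identifiers in RefSeq. Differences were computed with pandas 2.3.3, and the trend with a lowess fit (span 0.3) in statsmodels 0.14.6. The code was checked on simulated data.

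Every member was named, with all its probe sets where they differed in sign or by over 0.3. Up to 4 genes of each neighbouring list were named, by size of difference. FASN, SCD, MBTPS1, ERLIN2, OSBPL8 and SCARB1 were named as well, chosen after their values were seen. Members, lists and the 1.2-fold threshold were chosen with earlier results of these data known. With 1 array per line the number of arrays limits the precision. Alternatives were other filters, probe set rules and centring.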

Additional observations from a re-analysis of the deposited data

How the results depend on the processing

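No paired analysis was possible because there was 1 array per line, and for the same reason no array could be left out. Over 7 alternatives the count of members at least 1.2-fold higher ran from 6 to 9, of 20 to 29 measured, while 9.22 to 11.7% of all measured genes were that much higher. The median difference over the measured members ran from 0.064 to 0.15, and that over all measured genes from -0.0026 to 0.021. The count at least 1.2-fold lower was 0, and became 1 without a filter on low values, which let ABCG1 in at -0.52. No member reached 1.5-fold in either direction (0 higher, 0 lower) under the alternatives run. With the median over probe sets ABCA1 entered at 0.56, by the probe set that reached the filter level on the miR-203 array alone. The same setting moved INSIG1 to -0.019, LSS to 0.20, SQLE to 0.15 and SREBF2 to -0.019. No detection calls were used, so signal over background is unknown.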
